A study of Mus musculus with 6 samples.

Results

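The hair cell mechanotransduction channel complex is the machinery at the tips of stereocilia that turns bundle deflection into a cation current. Its genes were taken here as 8 rows matched by gene name, Tmc1, Tmc2, Tmie, Lhfpl5, Cib2, Pcdh15, Cdh23 and Tomt, of 30462 genes in the table. Bulk RNA-seq had been made from the cochlea of mice at postnatal day 7, with 3 libraries labelled Neu4 knockout (replicates 2, 4 and 5) and 3 labelled wild type (replicates 3, 4 and 5). Neu4 encodes one of the sialidases, which cleave terminal sialic acids off glycans. The labels give neither the nature of the Neu4 allele nor the strain, and they do not say that the libraries came from separate animals. The p-values therefore measure the spread between these libraries, which may be in part technical.

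In the transduction complex, a tip link of cadherin 23 and protocadherin 15 pulls on a pore formed by the TMC proteins. The small membrane proteins TMIE and LHFPL5 and the calcium-binding protein CIB2 join the pore to the tip link or are needed for its assembly. In the mouse cochlea Tmc2 is known as the early, transient TMC gene and Tmc1 as the one that persists in mature hair cells, so the balance between them is used as a measure of maturation. The comparison asks whether the RNA of these genes, and that balance, differed between knockout and wild-type cochlea.

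All 8 genes were detected in all 6 libraries, and the mean level of each was higher in knockout than in wild type, by between 1.01 times (Cib2) and 1.68 times (Tmc2). None of these differences passed the test across all genes. Tmc1, Lhfpl5 and Tmie were the 3 genes for which every knockout library lay above every wild-type library. Of all 21357 genes tested, 12.8% were apart in that way, and 56.8% had a positive log2 difference. The Tmc1 to Tmc2 ratio averaged 0.736 ± 0.246 in knockout and 0.820 ± 0.327 in wild type (SD, n = 3 each), a difference smaller than the spread among the libraries.

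Levels are given as FPKM, fragments scaled to exon length and to the library total, as the authors deposited them. Multiplied by exon length, 98.3% of the genes gave whole numbers of fragments in every library, and these implied 15170973 to 17192293 fragments per library. The 8 genes together held 840 to 1016 fragments per library, so counting error is a large part of the spread for the lowest of them. Neu4 itself had 4, 8 and 6 fragments in knockout replicates 2, 4 and 5, against 4, 8 and 6 in wild-type replicates 3, 4 and 5, so its RNA at this depth gives no check of the labels. By the Y-linked gene Ddx3y and by Xist, knockout replicate 2 was male and replicates 4 and 5 female, while wild-type replicates 3 and 4 were male and replicate 5 female.

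Gene spans below are on GRCm38. Tmc1 (ENSMUSG00000024749, chr19:20783458-20954202, minus strand), a pore subunit, was low in every library. It had 0.217, 0.271 and 0.312 FPKM in knockout replicates 2, 4 and 5, against 0.168, 0.146 and 0.174 FPKM in wild-type replicates 3, 4 and 5. Those levels rest on 26, 33 and 34 fragments in knockout and 20, 18 and 20 fragments in wild type. The lowest knockout library lay above the highest wild-type library, which fixes the same order within each sex. The mean FPKM was 0.267 ± 0.0475 in knockout and 0.163 ± 0.0151 in wild type (SD, n = 3 each), a ratio of 1.64. The rate of fragments pooled over libraries was 1.63 times as high in knockout as in wild type, with a 95% interval of 1.16 to 2.31 that covers counting error only. The variance among Tmc1 libraries within the groups was 0.573 of what counting error alone gives, as a chi-square per degree of freedom. With limma on log2(FPKM + 0.1), the log2 difference was 0.47 ± 0.30 (SE), with an adjusted p of 0.532 and a 95% interval of −0.24 to 1.19. Because Tmc1 lies near the pseudocount, that scale understates its change. With voom weights on the recovered fragments, limma gave a log2 difference of 0.66 and an adjusted p of 0.252.

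Tmc2 (ENSMUSG00000060332, chr2:130195194-130264445, plus strand) encodes the other pore subunit. It had 0.336, 0.496 and 0.307 FPKM in knockout replicates 2, 4 and 5, against 0.339, 0.127 and 0.214 FPKM in wild-type replicates 3, 4 and 5. The groups overlapped, since wild-type replicate 3 lay above knockout replicates 2 and 5. These are the second-lowest fragment numbers among the 8 genes, with 18, 27 and 15 in knockout and 18, 7 and 11 in wild type. The mean FPKM was 0.380 ± 0.102 in knockout and 0.227 ± 0.107 in wild type (SD, n = 3 each). The pooled fragment rate was 1.70 times as high in knockout, with a counting interval of 1.11 to 2.64. The variance within the groups was, however, 2.08 times that of counting error. The limma log2 difference was 0.59 ± 0.35 (SE, adjusted p = 0.502).

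**Figure D1:**
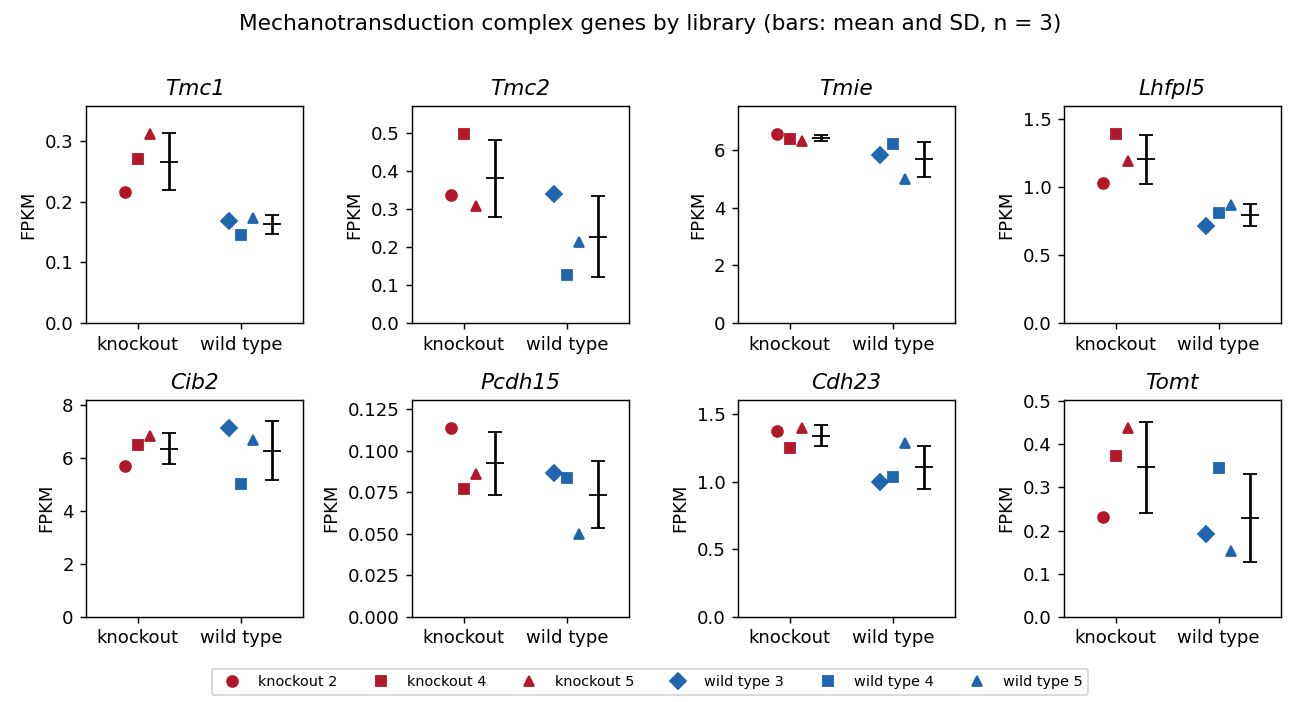
FPKM (y axes, each from 0) of the 8 genes in 3 knockout libraries (left, red) and 3 wild-type libraries (right, blue), with the mean and SD of each group as black bars. Knockout points lie above all wild-type points for Tmc1, Tmie and Lhfpl5 and overlap them for the other genes.

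The Tmc1 to Tmc2 ratio was taken per library. It was 0.646, 0.547 and 1.01 in knockout replicates 2, 4 and 5, against 0.497, 1.15 and 0.813 in wild-type replicates 3, 4 and 5. The knockout range lay inside the wild-type range, and each group held 1 library with a ratio above 1. The counting interval of a single library was wide, from 0.538 to 2.00 in knockout replicate 5 and from 0.458 to 3.26 in wild-type replicate 4, and 4 of the 6 intervals held 1. The mean log2 ratio was −0.49 in knockout and −0.37 in wild type. The exact two-sided permutation test of that difference of −0.13 gave p = 0.8, where the smallest p that 3 against 3 libraries allow is 0.1. Pooled over libraries, the ratio was 0.693 (0.496 to 0.976) in knockout and 0.721 (0.467 to 1.12) in wild type. The pooled ratio in knockout was thus 0.962 times that in wild type, with a counting interval of 0.547 to 1.68. A shift of the balance inside that interval could not be told from counting error at this depth. The interval leaves out the spread between libraries, and for Tmc2 the variance within the groups was 2.08 times that of counting error. It therefore does not show that a larger shift would have been detected. The permutation test could not give a p under 0.1 for a shift of any size, so it cannot decide whether the balance differed.

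Which TMC gene was the more abundant depended on the length used. The FPKM divide by the length of all annotated exons, which is 7190 bases for Tmc1 but only 4073 bases in its longest annotated transcript, and 3216 bases by either measure for Tmc2. By the deposited FPKM, Tmc2 lay above Tmc1 in 4 of the 6 libraries. With the same fragments divided by the longest transcript, Tmc1 lay above Tmc2 in 4 of the 6 libraries. The ratio then averaged 1.30 ± 0.434 in knockout and 1.45 ± 0.577 in wild type (SD, n = 3 each), and the log2 difference between the groups stayed at −0.13, since the length cancels. The absolute ratio was therefore not read as a stage of maturation. The summed level of both genes was 0.553, 0.767 and 0.619 FPKM in knockout replicates 2, 4 and 5, against 0.508, 0.272 and 0.388 FPKM in wild-type replicates 3, 4 and 5.

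**Figure D2:**
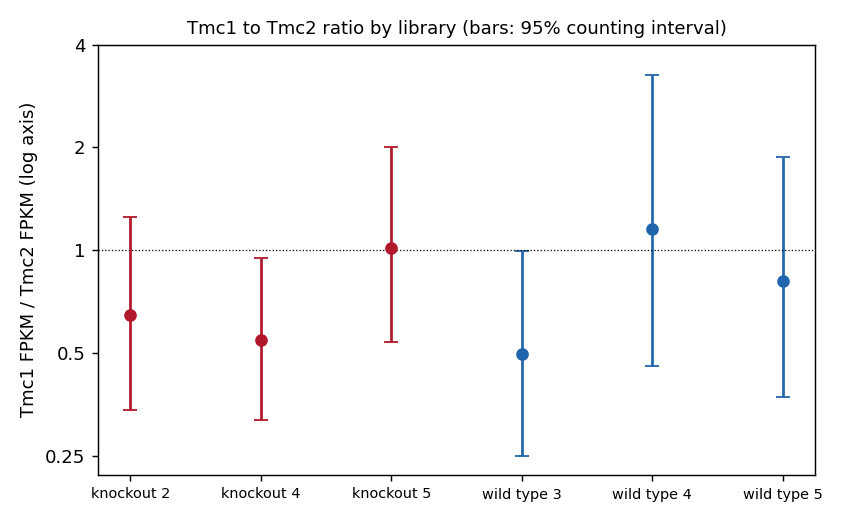
Tmc1 FPKM divided by Tmc2 FPKM (log axis) in each knockout library (red, left) and wild-type library (blue, right), with 95% counting intervals as bars and a dotted line at 1. The knockout points, 0.547 to 1.01, lie inside the range of the wild-type points, 0.497 to 1.15.

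Tmie (ENSMUSG00000049555, chr9:110865711-110880113, minus strand) encodes a small transmembrane protein that is needed for transduction and binds the TMC subunits. It had 6.56, 6.40 and 6.33 FPKM in knockout replicates 2, 4 and 5, against 5.85, 6.20 and 5.01 FPKM in wild-type replicates 3, 4 and 5. The groups did not overlap, but wild-type replicate 4 lay close under the knockout libraries and wild-type replicate 5 well below them. The means were 6.43 ± 0.118 FPKM in knockout and 5.69 ± 0.611 FPKM in wild type (SD, n = 3 each), and the limma log2 difference was 0.18 ± 0.09 (SE, adjusted p = 0.408). Part of the gene, 244 bases or 7.89% of its exons, is shared with Als2cl on the opposite strand, whose level was 10.3 ± 0.727 FPKM in knockout and 9.05 ± 0.157 FPKM in wild type. The strand setting of the counting is not known here, so reads of the 2 genes in that stretch cannot be told apart.

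Lhfpl5 (ENSMUSG00000062252, chr17:28575641-28585679, plus strand), which encodes a tetraspan protein that holds protocadherin 15 to the channel, had the lowest p of the 8 genes by limma on log2 FPKM, while by voom Cdh23 had the lowest. Its level was 1.03, 1.39 and 1.19 FPKM in knockout replicates 2, 4 and 5, against 0.710, 0.804 and 0.865 FPKM in wild-type replicates 3, 4 and 5. Every knockout library was higher than every wild-type library. The means were 1.20 ± 0.178 FPKM in knockout and 0.793 ± 0.0778 FPKM in wild type (SD, n = 3 each). On 41, 56 and 43 fragments in knockout and 28, 33 and 33 in wild type, the pooled rate was 1.52 times as high in knockout, with a counting interval of 1.16 to 1.99. The limma log2 difference was 0.54 ± 0.17 (SE), a fold of 1.45 with a 95% interval of 1.10 to 1.92. Its adjusted p was 0.249 by limma on log2 FPKM and 0.243 by voom, so it did not pass the threshold of 0.05.

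Cib2 (ENSMUSG00000037493, chr9:54544794-54560218, minus strand), a calcium- and integrin-binding protein that binds TMC1 and TMC2, was among the most abundant of the 8. It had 5.70, 6.51 and 6.85 FPKM in knockout replicates 2, 4 and 5, against 7.14, 5.03 and 6.68 FPKM in wild-type replicates 3, 4 and 5. The highest and the lowest library were both wild type, and the means were 6.35 ± 0.595 FPKM in knockout and 6.29 ± 1.11 FPKM in wild type (SD, n = 3 each). The limma log2 difference was 0.03 ± 0.14 (SE, adjusted p = 0.952), with a 95% interval of −0.30 to 0.36, and its sign turned under another scaling and with sex in the model. Unlike Tmc1, Cib2 had a variance within the groups 3.02 times that of counting error.

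Cdh23 (ENSMUSG00000012819, chr10:60302748-60696490, minus strand) encodes the upper strand of the tip link. It had 1.37, 1.25 and 1.40 FPKM in knockout replicates 2, 4 and 5, against 0.994, 1.04 and 1.29 FPKM in wild-type replicates 3, 4 and 5. Knockout replicate 4 lay below wild-type replicate 5, so the groups overlapped by 1 library on each side. With 1105 fragments in knockout and 929 in wild type it was the most deeply counted of the 8 genes, and the pooled rate was 1.21 times as high in knockout, with a counting interval of 1.11 to 1.32. The variance within the groups was 3.83 times that of counting error, and that interval leaves the excess out. The limma log2 difference was 0.26 ± 0.15 (SE, adjusted p = 0.481), and voom gave an adjusted p of 0.238.

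Pcdh15 (ENSMUSG00000052613, chr10:73099342-74649737, plus strand), the lower strand of the tip link, was the lowest of the 8 genes by FPKM. It had 0.114, 0.0770 and 0.0860 FPKM in knockout replicates 2, 4 and 5, against 0.0866, 0.0832 and 0.050 FPKM in wild-type replicates 3, 4 and 5, and the groups overlapped. Its mean over all libraries, 0.0827 FPKM, is under the minimum of 0.1 FPKM for the test, so its log2 difference of 0.15 ± 0.25 (SE, limma adjusted p = 0.825) comes from the fit with no minimum. The low FPKM is in part a matter of length, since 41 annotated transcripts give 23773 bases of exon while the longest transcript has 9104 bases. Its fragments, 45, 31 and 31 in knockout and 34, 34 and 19 in wild type, were more numerous than those of Tmc1 in total.

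Tomt (ENSMUSG00000078630, chr7:101898370-101906359, minus strand) encodes a transmembrane O-methyltransferase that is needed for the TMC proteins to reach the bundle. It had 0.231, 0.372 and 0.438 FPKM in knockout replicates 2, 4 and 5, against 0.191, 0.346 and 0.153 FPKM in wild-type replicates 3, 4 and 5. The groups overlapped through wild-type replicate 4, and the limma log2 difference was 0.45 ± 0.36 (SE, adjusted p = 0.615). These values are uncertain, since 1981 bases or 69.3% of the Tomt exons are shared with Anapc15 on the opposite strand. Anapc15, a subunit of the anaphase-promoting complex, had 1.66 ± 0.251 FPKM in knockout and 1.58 ± 0.123 FPKM in wild type (SD, n = 3 each).

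Compared per length over all 6 libraries, the 8 genes fell into levels whose ranges did not overlap. Cib2 (5.03 to 7.14 FPKM) and Tmie (5.01 to 6.56 FPKM) were highest and overlapped. Cdh23 (0.994 to 1.40 FPKM) and Lhfpl5 (0.710 to 1.39 FPKM) came next and also overlapped, followed by Tmc2, Tomt and Tmc1, between 0.127 and 0.496 FPKM, whose ranges overlapped too. Tmie lay above Cdh23, Lhfpl5 above Tmc2, and Tmc1 above Pcdh15 in all 6 libraries. The last gap was narrow, between 0.127 FPKM for Tmc2 in wild-type replicate 4 and 0.114 FPKM for Pcdh15 in knockout replicate 2. Per length of the longest transcript, Tmie moved above Cib2, and Tmc1 above Tmc2 and Tomt, in mean level. Pcdh15 remained lowest by mean but not in every library, since it lay above Tomt in knockout replicate 2 and wild-type replicate 3 and above Tmc2 in wild-type replicate 4. It stood at 0.241 ± 0.0498 in knockout and 0.191 ± 0.0528 in wild type (SD, n = 3 each) on the FPKM scale.

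Of the 7 genes that met the minimum, 7 had a positive log2 difference, with a median of 0.45, against 0.03 over all 21357 genes tested, of which 56.8% were positive. No gene of the complex passed an adjusted p of 0.05 in limma, where 0.112% of all genes did, nor by voom, where 1.76% of genes did. At an unadjusted p under 0.05, 1 of the 7 was called higher (Lhfpl5), where 8.38% of all genes were. By voom, 3 of the 8 had an unadjusted p under 0.05 and were higher in knockout, namely Tmc1, Lhfpl5 and Cdh23, where 8.69% of all genes were. Knockout and wild-type libraries were apart, knockout higher, for 3 of the 7, where 12.8% of all genes tested were, and for 0 of the 7 with knockout lower, where 8.03% of all genes tested were. In bulk tissue, more cells of a type and more RNA per cell cannot be told apart.

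**Figure D3:**
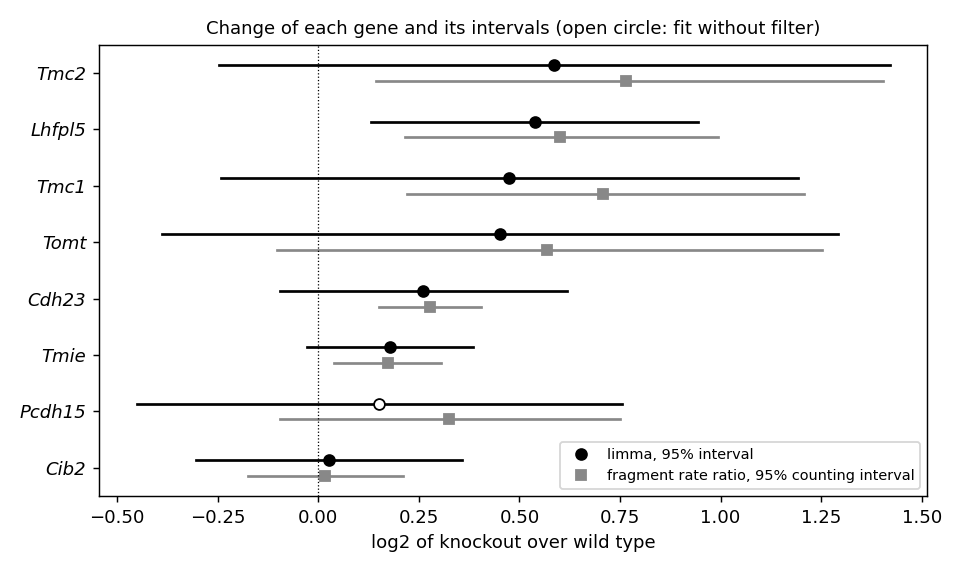
Log2 of knockout over wild type (x axis) for each gene, as the limma estimate with its 95% interval (black circles; open for Pcdh15, from the fit with no minimum) and as the ratio of pooled fragment rates with its counting interval (grey squares). The limma interval excludes 0 for Lhfpl5 before adjustment over all genes. Counting intervals exclude 0 for 5 genes but leave out the spread between libraries. The share of all genes with such intervals was not computed.

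Each level was also divided by a hair cell marker level, the geometric mean of FPKM + 0.1 of 5 hair cell genes. These were the transcription factors Pou4f3, Gfi1 and Lhx3, the motor Myo7a and the synaptic protein Otof. That marker level was 3.38, 3.96 and 3.53 in knockout replicates 2, 4 and 5, against 3.54, 2.91 and 3.03 in wild-type replicates 3, 4 and 5. Its mean was 1.15 times as high in knockout, and the groups overlapped. As a percent of it, Tmc1 stood at 7.37 ± 1.29 in knockout and 5.17 ± 0.518 in wild type, and Lhfpl5 at 33.0 ± 2.34 in knockout and 25.4 ± 4.66 in wild type (SD, n = 3 each). For both, every knockout library stayed above every wild-type library. The nearest values were those of knockout replicate 2 and wild-type replicate 5, 6.41 against 5.75 for Tmc1 and 30.4 against 28.6 for Lhfpl5. The share of all genes apart on this scale was not computed. Tmie no longer separated the groups on this scale, at 178 ± 16.1% in knockout and 181 ± 27.3% in wild type. Cdh23, Pcdh15, Cib2, Tmc2 and Tomt overlapped as well, with ratios of knockout to wild type from 0.886 for Cib2 to 1.49 for Tmc2. Whether the RNA of the complex genes came from hair cells alone was not tested, so these percents are not levels per hair cell.

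**Figure D4:**
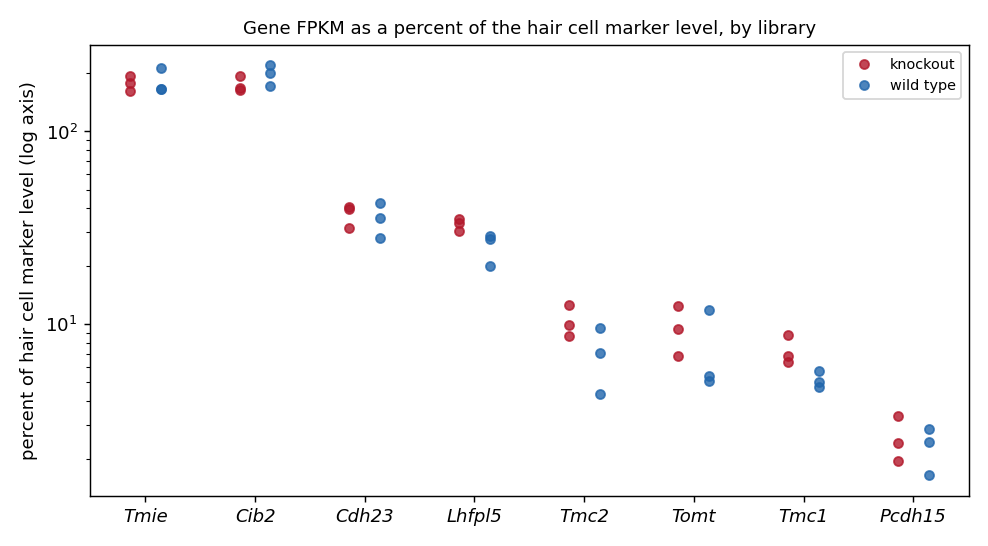
Level of each gene as a percent of the hair cell marker level (log axis), with knockout libraries in red on the left of each pair and wild-type libraries in blue on the right. Tmc1 and Lhfpl5 are the genes whose knockout points all lie above the wild-type points. The share of all genes apart on this scale was not computed. Tmie and Cib2 average 178 and 176% in knockout and 181 and 198% in wild type.

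The RefSeq promoters of the 3 genes whose groups did not overlap are shown because they differ in kind. Each is the 250 bases before the start that RefSeq annotates on GRCm38.p6, written along the gene's strand, with the E-box CAGCTG in capitals. The Tmc1 window lies at chr19:20954203-20954452 (minus strand), the Lhfpl5 window at chr17:28575469-28575718 (plus strand) and the Tmie window at chr9:110880074-110880323 (minus strand). RefSeq starts differ from those of the gene spans above, so 78 bases of the Lhfpl5 window and 40 bases of the Tmie window lie inside the spans.
Tmc1: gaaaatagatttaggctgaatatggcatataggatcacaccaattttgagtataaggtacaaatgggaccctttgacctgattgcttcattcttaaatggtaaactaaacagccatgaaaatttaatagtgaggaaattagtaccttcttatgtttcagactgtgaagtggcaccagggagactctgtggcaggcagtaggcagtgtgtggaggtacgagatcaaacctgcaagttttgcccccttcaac
Lhfpl5: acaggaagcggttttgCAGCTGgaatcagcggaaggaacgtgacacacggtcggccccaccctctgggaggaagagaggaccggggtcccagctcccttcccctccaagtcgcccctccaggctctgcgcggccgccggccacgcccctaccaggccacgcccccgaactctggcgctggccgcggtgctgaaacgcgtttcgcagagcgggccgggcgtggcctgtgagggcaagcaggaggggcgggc
Tmie: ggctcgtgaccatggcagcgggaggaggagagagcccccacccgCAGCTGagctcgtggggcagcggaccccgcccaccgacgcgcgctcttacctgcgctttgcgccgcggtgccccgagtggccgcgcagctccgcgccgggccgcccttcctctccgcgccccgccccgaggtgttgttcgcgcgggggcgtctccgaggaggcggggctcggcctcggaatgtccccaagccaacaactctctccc
The Tmc1 window is AT-rich, with 41.2% G and C, while those of Lhfpl5 (70.8%) and Tmie (74.8%) are GC-rich. The median of 32851 windows of the same length was 52.4%. CAGCTG, which reads the same on both strands, occurs once in the Lhfpl5 and once in the Tmie window, once in 1 of 2 Tomt windows, and in no window of Tmc1, Cib2, Cdh23 or Pcdh15. It is found in 13.0% of all windows. The Tomt window that holds it and the Pcdh15 window lie inside the gene spans with all 250 bases, and the Cib2 window with 28 bases. CATCTG (14.4% of windows), TAATTA (4.84%) and GTTGCC (10.4%), searched on both strands, occur in none of the windows of these genes. Motifs were chosen after the values were known, the matches are descriptions only, and no Tmc2 window was used here.

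Genes that work next to the complex were read from lists. Of 5 genes for the upper tip link anchor, 3 had a positive log2 difference and the median was 0.02. No anchor gene passed the test in limma. At an unadjusted p under 0.05, 1 of the 5 was higher in knockout, where 8.38% of all genes tested were. Voom called neither of the 2 it tested, since Myo7a, Ush1c and Ush1g were not in that fit. The gene with the low p was Ush1c, which encodes the scaffold harmonin, with 12.5, 15.8 and 14.9 FPKM in knockout replicates 2, 4 and 5, against 10.6, 9.46 and 10.5 FPKM in wild-type replicates 3, 4 and 5. Its groups did not overlap and its log2 difference was 0.49 ± 0.09 (SE, limma adjusted p = 0.142). The motor Myo1c, the most abundant of the list, had 26.1 ± 1.15 FPKM in knockout and 27.2 ± 0.658 FPKM in wild type (SD, n = 3 each).

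Of 23 other stereocilia bundle genes, 21 were tested, 17 had a positive log2 difference and the median was 0.26. None of the 21 passed in limma and none of 18 by voom. In limma 4 had an unadjusted p under 0.05, all higher in knockout, where 8.38% of all genes tested were. For 5 the groups were apart with knockout higher, where 12.8% of all genes tested were. The summed level of the list was 38.7 to 39.9 FPKM in knockout and 34.4 to 35.8 FPKM in wild type. Its 2 most abundant genes were not among those 5. The actin-bundling Triobp had 5.64 ± 0.149 FPKM in knockout and 6.12 ± 0.357 FPKM in wild type, and the tip protein gene Eps8l2 had 5.52 ± 0.406 FPKM in knockout and 5.13 ± 0.624 FPKM in wild type (SD, n = 3 each).

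Paralogues of the complex genes and other mechanosensitive channels were read in the same way. Of 15 paralogues, 13 were tested and 8 had a positive log2 difference, with a median of 0.04. None passed in limma or by voom, and 2 had an unadjusted p under 0.05 in limma, as 3009 of all 21357 genes did. For 3 of the 13 the groups were apart with knockout higher, where 12.8% of all genes tested were. Lhfp, a relative of Lhfpl5, had 25.3 ± 0.999 FPKM in knockout and 24.1 ± 0.869 FPKM in wild type, and Tmc6 had 14.4 ± 0.506 FPKM in knockout and 13.6 ± 0.568 FPKM in wild type (SD, n = 3 each). Of 5 other mechanosensitive channel genes, 2 had a positive log2 difference and the median was −0.01. Of these channel genes none passed in limma or by voom, and 1 had an unadjusted limma p under 0.05, as 3009 of all 21357 genes did. Piezo1, a stretch-activated channel of many tissues, had 30.2 ± 3.18 FPKM in knockout and 30.9 ± 1.43 FPKM in wild type, and Tmem63b had 24.0 ± 1.11 FPKM in knockout and 24.2 ± 0.960 FPKM in wild type (SD, n = 3 each).

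Markers of the cell types in the tissue are given beside the complex. Of 20 hair cell markers, 19 were tested and 17 had a positive log2 difference, with a median of 0.24 and a summed level of 81.9 to 89.3 FPKM in knockout and 68.6 to 81.4 FPKM in wild type. Limma called none of them, and 3 were higher in knockout at an unadjusted p under 0.05, where 8.38% of all genes tested were. Voom called 1 of 17, where 1.76% of all genes it tested were called. The gene called was the motor Myo6, with 9.04 ± 0.190 FPKM in knockout and 7.54 ± 0.25 FPKM in wild type (SD, n = 3 each). The largest part of the summed level was the most abundant gene, the calcium buffer Pvalb. Its level was 32.3 ± 4.0 FPKM in knockout and 25.9 ± 6.76 FPKM in wild type. The markers Otof, at 8.24 ± 0.556 FPKM in knockout and 7.28 ± 0.349 FPKM in wild type, and Myo7a, at 5.95 ± 0.213 FPKM in knockout and 5.86 ± 0.426 FPKM in wild type, place hair cell RNA in every library. Of 6 genes of maturing outer hair cells, 5 were tested and 4 had a positive log2 difference. Limma and voom called none of them. At an unadjusted limma p under 0.05, 1 was higher in knockout, the calcium buffer Ocm, where 8.38% of all genes tested were. It had 3.60 ± 0.939 FPKM in knockout and 1.99 ± 0.553 FPKM in wild type (log2 difference 0.82, limma adjusted p = 0.238). The motor protein gene Slc26a5 was at 0 in knockout replicate 4.

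Markers of other cell types were summed per library, and limma called none of them. The summed level of 4 mesenchyme markers was 187 to 199.5 FPKM in knockout and 154 to 160.0 FPKM in wild type, with all 4 apart and higher in knockout. All 4 had an unadjusted p under 0.05 in limma, where 8.38% of all genes tested did with knockout higher, and voom called 3. That p was also reached by 6 supporting cell markers, 5 higher in knockout and 1, Sox2, lower, by 2 neuron, 1 vestibular and 1 bone marker, all higher, and by 0 muscle and 0 macrophage markers. The 10 supporting cell markers summed to 299 to 343 FPKM in knockout and 285 to 302 FPKM in wild type, and the 8 neuron markers to 194 to 242 FPKM in knockout and 161 to 216 FPKM in wild type. Groups were apart with knockout higher for 6 supporting cell, 2 neuron and 2 hair cell markers, where 12.8% of all genes tested were. In these lists, 1 supporting cell and 1 hair cell marker were apart with knockout lower, where 8.03% of all genes tested were. Skeletal muscle markers, 8 of 8 with a negative log2 difference, summed to 31.4 to 242 FPKM in knockout and 133 to 597 FPKM in wild type, with the lowest sum in knockout replicate 4. The 4 middle ear markers summed to 2.39 to 96.3 FPKM in knockout and 346 to 627 FPKM in wild type, with Scgb1a1 at 0 in 3 libraries. For the middle ear list 3 genes had an unadjusted p under 0.05, all lower in knockout, and voom called 1. The 4 vestibular markers, whose hair cells use the same complex, summed to 92.0 to 121 FPKM in knockout and 98.3 to 116 FPKM in wild type, a sum that is mostly Oc90. Nox3, the vestibular marker called by voom, had 10.7 ± 0.384 FPKM in knockout and 6.80 ± 0.818 FPKM in wild type (SD, n = 3 each), with the groups apart and a limma adjusted p of 0.0764. Otop1 had 0.990 ± 0.175 FPKM in knockout and 0.736 ± 0.253 FPKM in wild type (SD, n = 3 each). Bone markers summed to 5952 to 7990.2 FPKM in knockout and 6528 to 7417 FPKM in wild type, and macrophage markers to 146 to 152 FPKM in knockout and 147 to 161 FPKM in wild type. The part of tissue makeup in the levels of the complex was not tested, since the division by hair cell markers takes hair cells as their source.

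The genes whose pattern over the 6 libraries was most like the mean of the 8 were ranked by the root mean square difference of centred log2(FPKM + 0.1) among 12437 protein-coding genes. Among the nearest were Map4k3 (0.0240), Slc12a2 (0.0293), Dpep1 (0.0299) and Acsl4 (0.0303), against a median of 0.195 over all genes compared. Slc12a2, a sodium-potassium-chloride cotransporter, had 10.4, 11.6 and 11.7 FPKM in knockout replicates 2, 4 and 5, against 8.82, 8.64 and 8.40 FPKM in wild-type replicates 3, 4 and 5. Nearest to Tmc1 were Ddx3x (0.0418) and Moxd1 (0.0608), and nearest to Tmc2 were Ninj2 (0.115) and Gm14326 (0.179), where the medians were 0.273 and 0.444. Such likeness over 6 libraries is a description of these values.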

How the data were processed

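Bulk RNA-seq of 6 cochlea libraries was analysed from 1 deposited table in which the authors gave FPKM per gene. The build GRCm38 is named in the submitters' processing notes; for the aligner, counter and strand setting, the sources used here give nothing. Exon lengths from GENCODE M21 matched 30378 of 30462 genes and turned the deposited FPKM into whole fragments (within 0.01) for 98.3% of genes. FPKM was tested as log2(FPKM + 0.1) with limma 3.58.1 in R 4.3.3 (two-sided, empirical Bayes with a trend, Benjamini-Hochberg over 21357 genes with a mean of at least 0.1 FPKM over all libraries, threshold 0.05). Pcdh15 was under that minimum and was taken from the fit without it. Voom ran on 16607 genes with whole recovered fragments and a mean of at least 10. Ratios of fragment rates have exact conditional binomial (Clopper-Pearson) 95% intervals, which cover counting error only. The Tmc1 to Tmc2 ratio was tested with an exact permutation test. The script was tested on simulated data. Promoters are from RefSeq GRCm38.p6 and were found for 7 of the 8 genes. The members, lists and tests were chosen with earlier results of these data known. Besides all 8 members, the rule for named genes took the 2 most abundant genes of each list and the genes nearest in pattern; Ush1c, Myo6, Ocm, Slc26a5, Sox2, Nox3, Otop1 and Scgb1a1 are also named for their values where the rule did not take them. For the lists of other cell types, sums are given in place of their 2 genes. Some genes the rule took are not reported here. No 2 libraries of a group agreed within sampling noise. Alternatives were the pseudocount, the minimum, the scaling, the trend, voom, sex, a replicate block, each library left out in turn, and, chosen after seeing the data, the length of the longest transcript.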

Additional observations from a re-analysis of the deposited data

How the results depend on the processing

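No gene of the complex was called under any alternative run. Where they were tested, the genes other than Cib2 kept the sign of the log2 difference (Tmc1, Tmc2 and Tomt were not tested with FPKM of at least 1 in 3 libraries), with ranges of 0.12 to 0.66 for Tmc1, 0.17 to 0.89 for Tmc2, 0.09 to 0.24 for Tmie, 0.29 to 0.63 for Lhfpl5, 0.15 to 0.37 for Cdh23 and 0.13 to 0.69 for Tomt. The Cib2 difference was −0.0037 with median-ratio scaling, −0.036 with sex as a covariate, and −0.12 to 0.13 when 1 library was left out. The Tmc1 to Tmc2 log2 difference was −0.45 to 0.16 when 1 library was left out, and positive without knockout replicate 4 (0.06) and without wild-type replicate 4 (0.16). It was −0.23 in male libraries, knockout replicate 2 against wild-type replicates 3 and 4. In female libraries, knockout replicates 4 and 5 against wild-type replicate 5, it was −0.13. Each of these values has a single library in a group, so they cannot show whether the sexes agreed. The count of all genes called, 24, became 40 with FPKM of at least 1 in 3 libraries, 12 without a trend, 292 by voom (105 higher, 187 lower) and 14 with sex as a covariate. It was 9 to 81 when 1 library was left out (9 without wild-type replicate 3, 14 without wild-type replicate 4, 13, 12 and 81 without knockout replicates 2, 4 and 5). With the replicate block over the shared numbers 4 and 5, 0 genes were called by limma (1761 with an unadjusted p under 0.05). The log2 ratio difference was then −0.38. The cause of these shifts was not tested. Deviations of same-numbered libraries from their group means correlated by 0.0396 and 0.0431. Knockout replicate 4 was female and wild-type replicate 4 male. Such values cannot decide whether same-numbered libraries shared a preparation. At 34 fragments per library or fewer, Tmc1, Tmc2 and Tomt are limited by depth.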
